A study of Homo sapiens with 2 samples.

Results

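The SLC25 genes encode the mitochondrial carriers, most of them proteins of the inner mitochondrial membrane. These move nucleotides, phosphate, acids, amino acids and coenzymes between the matrix and the cytosol. Members were taken as every gene of the count table whose symbol is SLC25A followed by a number alone. The rule found 48 symbols under 49 gene IDs, of 62699 gene IDs in the table, and 39 of the 48 reached 1 CPM (a count scaled to the library total) in at least 1 library. RNA was sequenced from HCC1954, an established human breast cancer cell line with amplification of ERBB2, the gene of the HER2 receptor. The ASO-1235 group and the ASO-NC group, named by their genotype labels, hold 1 library each, and the series title names the long non-coding RNA LINC01235 as the RNA under study. Both groups share the cell line and the polyA-selected library kit, and no time, dose or further treatment is given in the labels.

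A carrier of this family is built from repeated pairs of membrane-spanning helices around a central site, and it moves its substrate by opening in turn to either side of the membrane. Most members work as exchangers: ADP enters the matrix as ATP leaves, citrate leaves as malate enters, aspartate leaves as glutamate enters. In tumour cells the family is best known for citrate export, which feeds lipid synthesis in the cytosol, and for the malate-aspartate shuttle, which carries reducing power into mitochondria.

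The ASO-1235 library held 37916307 counts and the ASO-NC library 48092494 counts. Each ratio divides the ASO-1235 count by the ASO-NC count after scaling by TMM (the trimmed mean of M values), and its exact 95% interval covers counting error only. With 1 library per group there are no replicates, so no p-value is given for any difference, and a lower level per cell cannot be told apart from fewer cells that express a gene. Even numbers made up 64.0% of the values from 1 to 1000 in the ASO-1235 column and 67.5% in the ASO-NC column, so an interval on halved counts stands in for the case that both mates of a read pair were counted. LINC01235 had 0 counts in the ASO-1235 library and 1337 in the ASO-NC library. All 6 markers of breast epithelium were present, with 331248 counts in sum in the ASO-1235 library and 419594 in the ASO-NC library. The 4 immune markers summed to 16 counts in the ASO-1235 library and 4 in the ASO-NC library, the 4 fibroblast markers to 1575 counts in the ASO-1235 library and 2087 in the ASO-NC library, and the 4 endothelial markers to 289 counts in the ASO-1235 library and 377 in the ASO-NC library. The fibroblast sums were nearly all COL1A1 and the endothelial sums mostly VWF, and PDGFRB had 0 counts in both libraries.

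The carriers together took 0.167% of counts in the ASO-1235 library and 0.164% in the ASO-NC library. Levels of different genes are compared per length, as RPKM (TMM-scaled counts divided by the exon length). SLC25A5, the ADP/ATP translocase of proliferating cells, stood highest, with 82.3 RPKM in the ASO-1235 library and 98.5 RPKM in the ASO-NC library. SLC25A39, a glutathione carrier, followed with 40.1 RPKM in the ASO-1235 library and 46.6 RPKM in the ASO-NC library, beside the citrate carrier SLC25A1 with 40.0 RPKM in the ASO-1235 library and 50.8 RPKM in the ASO-NC library. The order of these neighbours turned between the libraries: SLC25A39 and SLC25A1 were nearly level in the ASO-1235 library, and SLC25A1 stood above in the ASO-NC library. With the longest transcript as length, SLC25A39 stood above SLC25A1 in both libraries, at 63.8 against 50.9 RPKM in the ASO-1235 library and 74.1 against 64.6 RPKM in the ASO-NC library. SLC25A36, a pyrimidine nucleotide carrier, was next with 26.2 RPKM in the ASO-1235 library and 21.8 RPKM in the ASO-NC library. By substrate, the ADP/ATP exchangers held 25.2% of the family's summed RPKM in the ASO-1235 library and 26.8% in the ASO-NC library, and the carriers of di- and tricarboxylates held 16.8% in the ASO-1235 library and 18.6% in the ASO-NC library. The pyrimidine nucleotide carriers held 7.74% in the ASO-1235 library and 5.98% in the ASO-NC library. Summed over all members, the level was 395 RPKM in the ASO-1235 library and 434 RPKM in the ASO-NC library. The order of the libraries depended on the unit. As TPM (counts per length, scaled to their sum over all genes) the sum was 996 in the ASO-1235 library and 961 in the ASO-NC library.

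**Figure D1:**
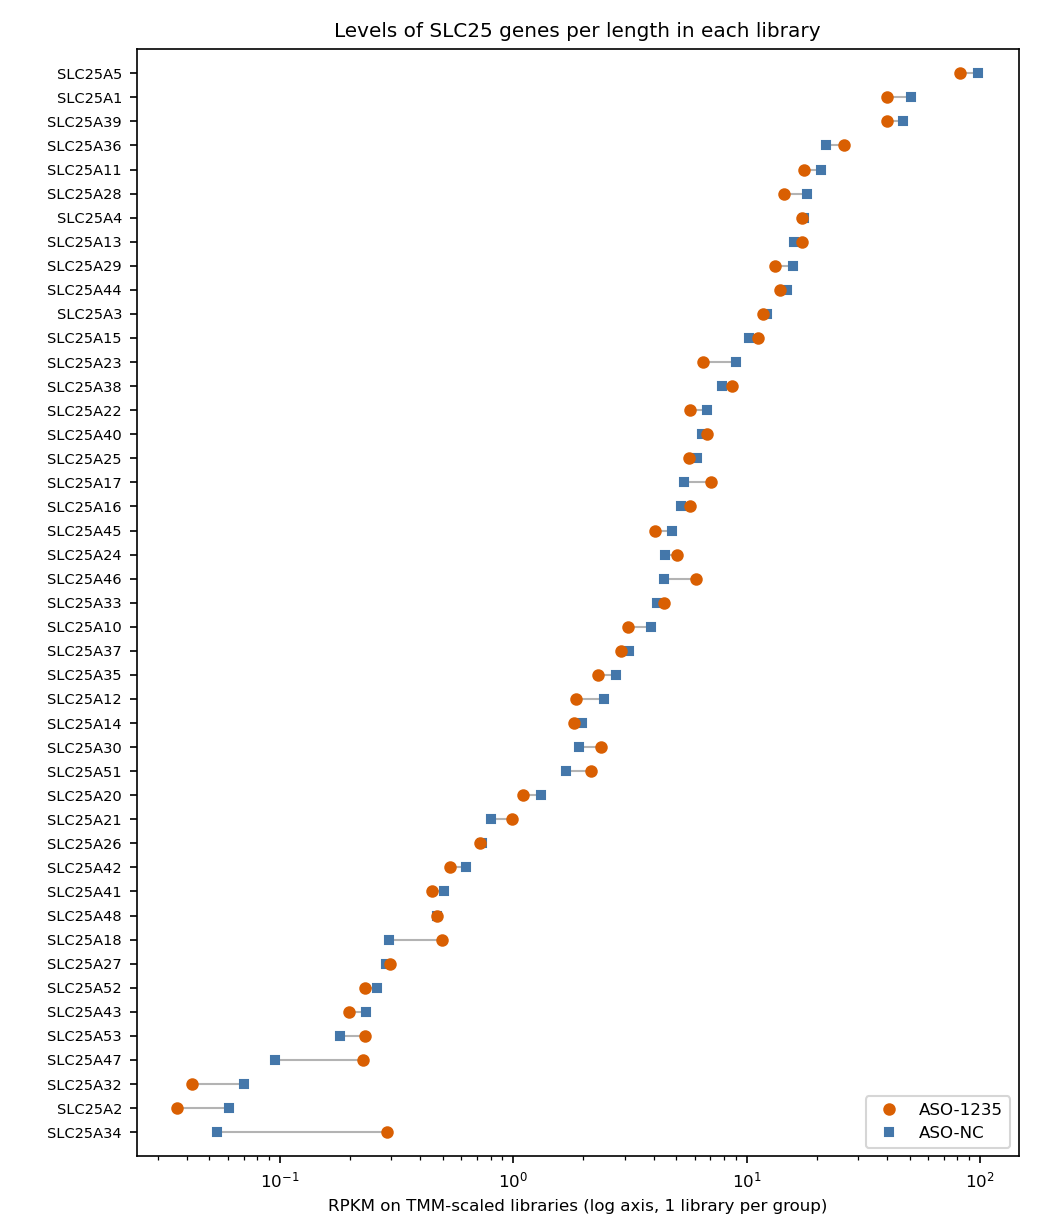
Level of the SLC25 genes with counts and reported by name, in RPKM on a log axis, in the ASO-1235 library (orange circles) and the ASO-NC library (blue squares), 1 library per group and no error bars. The levels run from SLC25A5, at 82.3 RPKM in the ASO-1235 library and 98.5 RPKM in the ASO-NC library, down to genes below 0.1 RPKM, and SLC25A34 at the bottom shows the widest gap between the libraries.

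Not every member could be measured. SLC25A6, a further ADP/ATP translocase, is listed at 0 counts in both libraries under each of its 2 gene IDs. It lies in the short-arm pseudoautosomal region shared by the X and Y chromosomes, and all 15 protein-coding genes of that region, each with 2 gene IDs in the table, are listed at 0 in both libraries. These zeros give no level for SLC25A6. SLC25A31, the ADP/ATP translocase of germ cells, also had 0 counts in both libraries, and a count of 0 was not separated from a level under the floor of 3 counts. SLC25A32, a folate carrier, had 6 counts in the ASO-1235 library and 12 in the ASO-NC library, and 80.8% of its exonic bases are shared with other genes in GENCODE 29, most of them with a readthrough gene that had 0 counts. The remaining members under 1 CPM were SLC25A2, SLC25A34, SLC25A41, SLC25A43, SLC25A47 and SLC25A52, with 2 to 39 counts.

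SLC25A34, whose substrate is not settled, stood apart among these weak genes, with 36 counts in the ASO-1235 library and 8 in the ASO-NC library. Its ratio was 5.38 (2.46 to 13.4, and 1.77 to 21.9 on halved counts), and it was picked out after its values were seen. SLC25A47 had 16 counts in the ASO-1235 library and 8 in the ASO-NC library, with an interval from 0.966 to 6.45 that included 1.

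Among the 39 measured carriers, differences between the libraries were small. A gene was called when its ratio passed 1.5-fold and its interval excluded 1: 1 carrier (2.56%) was called higher and 0 were called lower in the ASO-1235 library, against 6.4% of 14352 genes at 1 CPM called higher and 2.95% called lower. Past a log2 ratio of 0.32 in either direction and with an interval that excluded 1, 4 carriers (10.3%) were higher and 5 (12.8%) were lower, against 14.7% of all genes higher and 10.9% lower. The higher ones were SLC25A18, SLC25A46, SLC25A17 and SLC25A51, and the lower ones SLC25A23, SLC25A12, SLC25A1, SLC25A28 and SLC25A10. The ratio was below 1 for 23 of the 39, and for 49.9% of all genes. The median log2 ratio of the carriers was −0.05, against 0.00 over all genes. Between the quartiles of all genes, −0.19 and 0.22, lay 16 of the 39 (41%), a smaller share than quartiles hold of all genes by definition. On the deposited counts the interval excluded 1 for 23 carriers (59%), against 59.5% of all genes, and on halved counts for 20 (51.3%), against 45.9% of all genes.

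**Figure D2:**
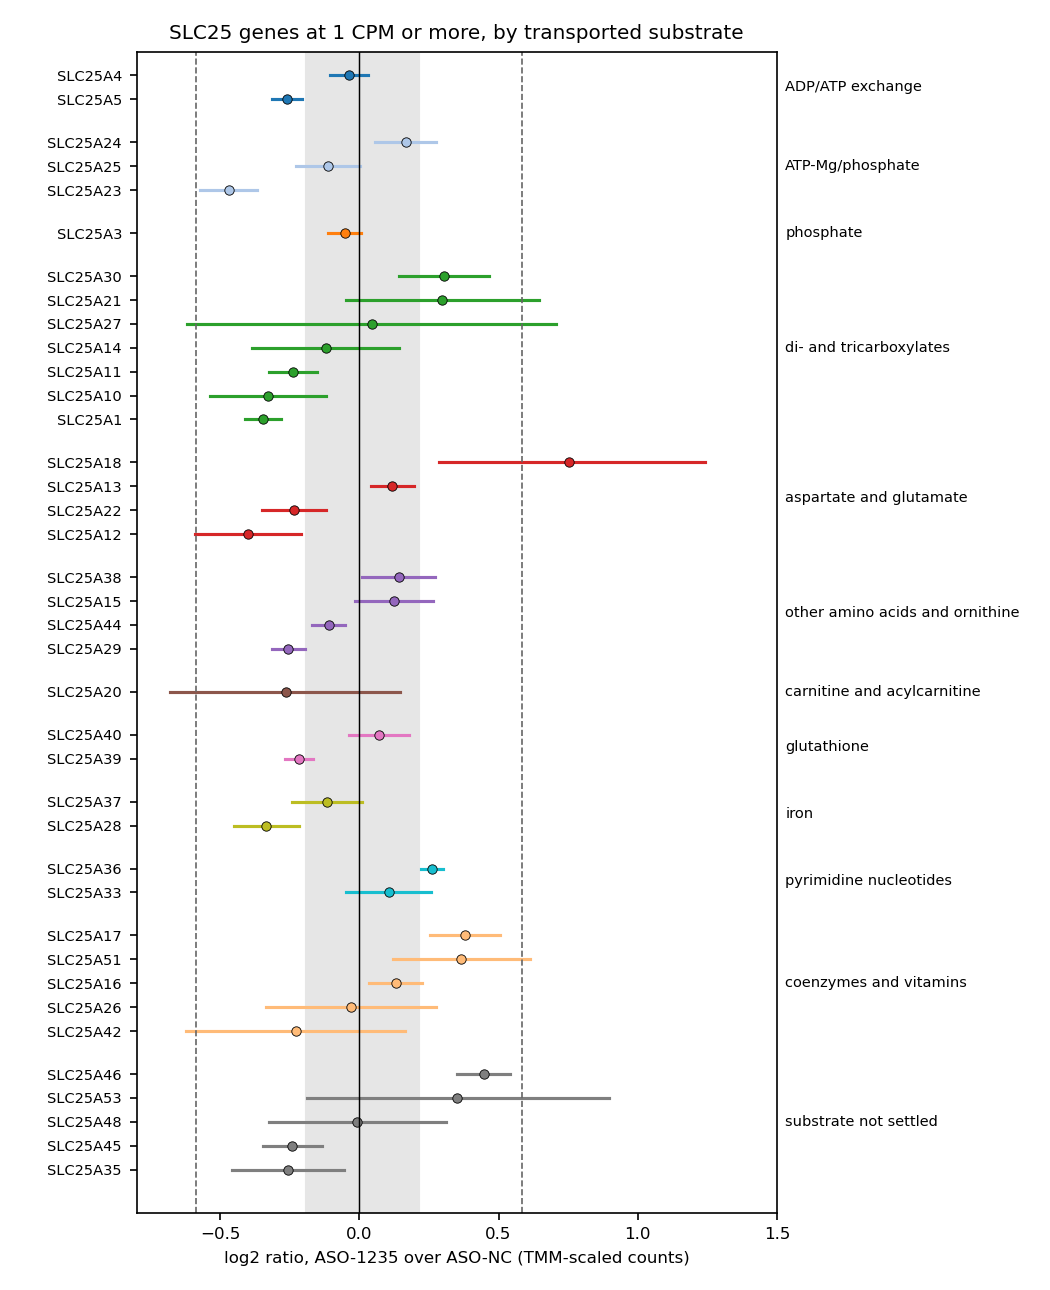
Log2 ratio ASO-1235 over ASO-NC of 38 of the 39 carriers at 1 CPM or more, grouped by transported substrate. Points are ratios and lines are exact 95% counting intervals on the deposited counts, the grey band spans the quartiles of all 14352 genes (log2 ratio −0.19 to 0.22), and dashed lines mark 1.5-fold; SLC25A18 is the single carrier beyond a dashed line.

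Carriers of adenine nucleotides and phosphate supply the ATP synthase and export its product. SLC25A5 had 4820 counts in the ASO-1235 library and 6899 in the ASO-NC library, a ratio of 0.835 (0.805 to 0.867). An antisense gene overlaps 15.1% of its exonic bases. SLC25A4, the translocase best known from heart and muscle, had 3258 counts in the ASO-1235 library and 3997 in the ASO-NC library, a ratio of 0.975 (0.930 to 1.02). The interval of SLC25A5 excluded 1 and that of SLC25A4 included it. Set against each other, which needs no library scaling, the ratio of SLC25A4 was 1.17 times that of SLC25A5. The interval was 1.10 to 1.24, and 1.07 to 1.27 on halved counts. This pair and those below were picked after their values were seen. SLC25A5 has 9 named pseudogenes in the table, with 17 counts in the ASO-1235 library and 14 in the ASO-NC library, and SLC25A1, SLC25A15 and SLC25A51 have 5 each. Whether reads that match more than 1 copy affect these counts was not tested. The phosphate carrier SLC25A3 had 4089 counts in the ASO-1235 library and 5071 in the ASO-NC library, with an interval from 0.925 to 1.005 that included 1.

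The ATP-Mg/phosphate carriers change the adenine nucleotide content of the matrix and are regulated by calcium. They went apart. SLC25A23 had the lowest ratio of the 39 carriers, with 1240 counts in the ASO-1235 library and 2053 in the ASO-NC library, a ratio of 0.722 (0.673 to 0.775). SLC25A24 had 1318 counts in the ASO-1235 library and 1404 in the ASO-NC library, a ratio of 1.12 (1.04 to 1.21), and 13.7% of its exonic bases overlap antisense genes. SLC25A25 lay between them with 1094 counts in the ASO-1235 library and 1414 in the ASO-NC library, a ratio of 0.925 (0.854 to 1.002). Other genes, mostly antisense, overlap 16.2% of its exonic bases. In counts, SLC25A23 stood at 0.941 times SLC25A24 in the ASO-1235 library and at 1.46 times in the ASO-NC library, so the order of the pair turned. Per length SLC25A23 was the higher of the pair in both libraries, at 1.30 times SLC25A24 in the ASO-1235 library and 2.03 times in the ASO-NC library. The ratio of SLC25A23 was 0.643 times that of SLC25A24 (0.580 to 0.714) and 0.781 times that of SLC25A25 (0.701 to 0.869), and both intervals excluded 1 on halved counts as well.

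Of the 7 carriers of di- and tricarboxylates and their relatives, 4 had ratios below 1 and the median log2 ratio was −0.12. The citrate carrier SLC25A1 had 3273 counts in the ASO-1235 library and 4972 in the ASO-NC library, a ratio of 0.787 (0.753 to 0.823). SLC25A10, which exchanges malate or succinate for phosphate, had 319 counts in the ASO-1235 library and 479 in the ASO-NC library, a ratio of 0.796 (0.689 to 0.919). SLC25A11, which exchanges oxoglutarate for malate in the malate-aspartate shuttle, had 1846 counts in the ASO-1235 library and 2601 in the ASO-NC library, a ratio of 0.849 (0.799 to 0.901). These carriers of central acids were lower in the ASO-1235 library with intervals that excluded 1 on halved counts too. Across all genes the log2 ratio followed GC content and, less closely, transcript length, and a smooth curve on both was fitted and subtracted. With that trend subtracted, the log2 ratio was −0.14 for SLC25A1, against −0.35 before, −0.13 for SLC25A10, against −0.33, and −0.06 for SLC25A11, against −0.24. For SLC25A10, 46.6% of exonic bases are shared with another gene of the same strand that had 0 counts. SLC25A30, an uncoupling protein relative, lay on the other side, with a ratio of 1.23 (1.10 to 1.38). It had 630 counts in the ASO-1235 library and 610 in the ASO-NC library. Its log2 ratio was 0.12 with the trend subtracted, against 0.30 before. SLC25A21, the oxodicarboxylate carrier, had 143 counts in the ASO-1235 library and 139 in the ASO-NC library, with an interval from 0.967 to 1.57 that included 1, and overlaps PAX9 and an antisense gene. The intervals of the uncoupling protein relatives SLC25A14 and SLC25A27 also included 1.

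Aspartate and glutamate carriers had both the widest range and the single call. SLC25A18, which imports glutamate, had 92 counts in the ASO-1235 library and 65 in the ASO-NC library, a ratio of 1.69 (1.22 to 2.36, and 1.06 to 2.74 on halved counts). At 0.497 RPKM in the ASO-1235 library and 0.294 RPKM in the ASO-NC library it was a minor isoform beside SLC25A22, which carries the same substrate at 5.75 RPKM in the ASO-1235 library and 6.76 RPKM in the ASO-NC library. SLC25A22 had 1043 counts in the ASO-1235 library and 1467 in the ASO-NC library, a ratio of 0.850 (0.785 to 0.921). Its log2 ratio was −0.05 with the trend subtracted, against −0.23 before. With a minimum of 5 CPM, SLC25A18 drops out and 0 carriers are called. SLC25A12 and SLC25A13 exchange aspartate for glutamate, the step that drives the malate-aspartate shuttle. SLC25A12 had 376 counts in the ASO-1235 library and 593 in the ASO-NC library, a ratio of 0.758 (0.665 to 0.864). SLC25A13, the more abundant of the pair, had 2511 counts in the ASO-1235 library and 2765 in the ASO-NC library, a ratio of 1.09 (1.03 to 1.15). The pair lay on opposite sides of 1, and the ratio of SLC25A12 was 0.698 times that of SLC25A13 (0.605 to 0.805, and 0.570 to 0.856 on halved counts). Their transcripts have nearly the same GC content, 44.2% for SLC25A12 and 44.9% for SLC25A13.

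**Figure D3:**
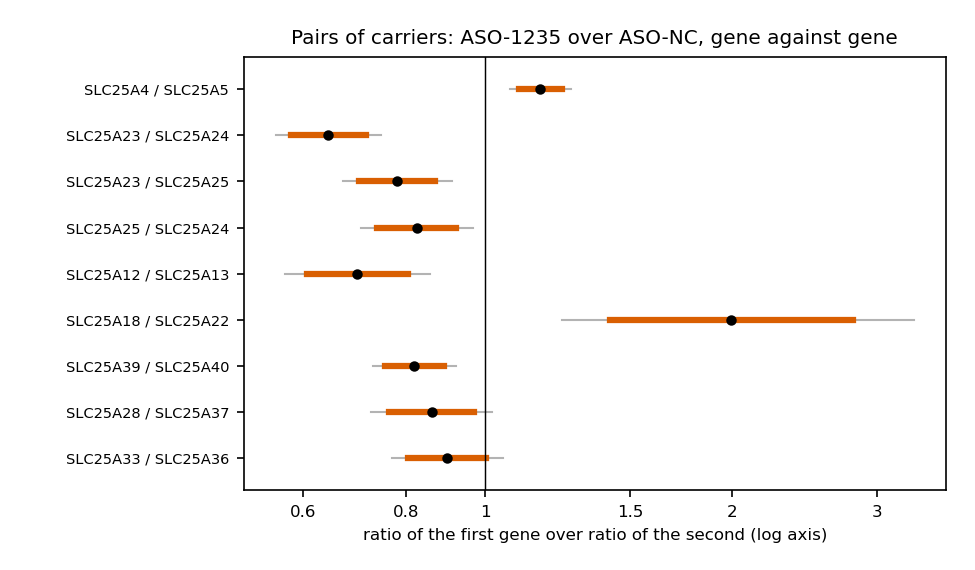
Ratio ASO-1235 over ASO-NC of the first gene divided by that of the second, for 9 pairs of carriers, on a log axis. The carriers of a pair share a substrate. The pairs were chosen after their values were seen, and not every pair that shares a substrate is shown. Dots are the values, thick orange lines are exact 95% intervals on the deposited counts, and thin grey lines are the intervals on halved counts; SLC25A23 against SLC25A24 lies lowest at 0.643 and SLC25A18 against SLC25A22 highest at 1.99.

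Among carriers of other amino acids, SLC25A29, which carries arginine and lysine, had a ratio of 0.838 (0.804 to 0.874). It had 3852 counts in the ASO-1235 library and 5494 in the ASO-NC library. Its log2 ratio was −0.12 with the trend subtracted, against −0.25 before. SLC25A44, linked to branched-chain amino acids, had 3946 counts in the ASO-1235 library and 5092 in the ASO-NC library, a ratio of 0.927 (0.889 to 0.966). The 2 others were above 1. SLC25A38, which brings glycine into the matrix for haem synthesis, had 919 counts in the ASO-1235 library and 996 in the ASO-NC library, a ratio of 1.10 (1.01 to 1.21) whose interval included 1 on halved counts. The ornithine carrier SLC25A15, which serves the urea cycle in liver, had 801 counts in the ASO-1235 library and 879 in the ASO-NC library, with an interval from 0.989 to 1.20 that included 1. SLC25A20, which brings acylcarnitines to the fatty acid oxidation enzymes, was a weak gene with 85 counts in the ASO-1235 library and 122 in the ASO-NC library. Its ratio of 0.833 had an interval from 0.624 to 1.11, so a difference was not detectable at this depth.

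The glutathione carriers also went apart. SLC25A39 had 5522 counts in the ASO-1235 library and 7673 in the ASO-NC library, a ratio of 0.861 (0.831 to 0.891). SLC25A40 had 1337 counts in the ASO-1235 library and 1522 in the ASO-NC library, with an interval from 0.975 to 1.13 that included 1. The ratio of SLC25A39 was 0.819 times that of SLC25A40 (0.755 to 0.889), and SLC25A39 stood at 5.95 times SLC25A40 per length in the ASO-1235 library and 7.26 times in the ASO-NC library. Their transcripts differ widely in GC content, 59.4% for SLC25A39 and 34.2% for SLC25A40. With the trend subtracted, the log2 ratio was −0.04 for SLC25A39 and −0.20 for SLC25A40, which turned the order of the pair.

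Mitoferrins carry iron into mitochondria for haem and iron-sulphur clusters. SLC25A28, the broadly expressed mitoferrin, had 991 counts in the ASO-1235 library and 1493 in the ASO-NC library, a ratio of 0.794 (0.732 to 0.861). Its log2 ratio was −0.15 with the trend subtracted, against −0.33 before. SLC25A37, the mitoferrin of red blood cell precursors, had 924 counts in the ASO-1235 library and 1197 in the ASO-NC library, with an interval from 0.846 to 1.01 that included 1. Set against each other, the ratio of SLC25A28 was 0.860 times that of SLC25A37 (0.763 to 0.969), and on halved counts the interval from 0.725 to 1.02 included 1.

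Both pyrimidine nucleotide carriers, which supply the nucleotides for mitochondrial DNA and RNA, had ratios above 1. SLC25A36 had 10524 counts in the ASO-1235 library and 10500 in the ASO-NC library, a ratio of 1.20 (1.17 to 1.23) once the smaller ASO-1235 library is scaled. SLC25A33 had 668 counts in the ASO-1235 library and 742 in the ASO-NC library, with an interval from 0.968 to 1.20 that included 1. With the trend subtracted, the log2 ratio of SLC25A36 was 0.02.

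Coenzyme and vitamin carriers were split evenly, with 3 of 6 measured members above 1. SLC25A17, which brings coenzyme A and related cofactors into peroxisomes, had 1096 counts in the ASO-1235 library and 1007 in the ASO-NC library, a ratio of 1.30 (1.19 to 1.42). SLC25A51, the carrier of NAD, had 287 counts in the ASO-1235 library and 266 in the ASO-NC library, a ratio of 1.29 (1.09 to 1.53). Its close relative SLC25A52 had 12 counts in the ASO-1235 library and 16 in the ASO-NC library. SLC25A17 and SLC25A51 were higher in the ASO-1235 library on halved counts too, and after trend removal their log2 ratios were 0.28 and 0.44. SLC25A16, linked to coenzyme A, was at 1.09 (1.03 to 1.17), an interval that included 1 on halved counts. The coenzyme A carrier SLC25A42 had a ratio of 0.854 and the S-adenosylmethionine carrier SLC25A26 a ratio of 0.981, both with intervals that included 1.

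Of the members whose substrate is not settled, SLC25A46 had the second highest ratio of all 39 carriers. This protein sits in the outer membrane and takes part in shaping mitochondria. It had 1955 counts in the ASO-1235 library and 1715 in the ASO-NC library, a ratio of 1.36 (1.28 to 1.46), and its transcript had the lowest GC content of the measured carriers, 32.1%. After removal of the trend its log2 ratio was 0.10, against 0.45 before. SLC25A45 had 1244 counts in the ASO-1235 library and 1758 in the ASO-NC library, a ratio of 0.846 (0.786 to 0.910). Its log2 ratio was −0.13 with the trend subtracted, against −0.24 before. SLC25A35 was at 0.838 (0.729 to 0.962), an interval that included 1 on halved counts, and 33.2% of its exonic bases overlap RANGRF. SLC25A48 and SLC25A53 had ratios of 0.995 and 1.28 with intervals that included 1.

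The ratio of the carriers moved with the GC content of their transcripts. Of 13 carriers under 45% GC, 2 had ratios below 1, and of 13 at 55% GC or more, 12 did, with SLC25A18 as the exception. The median log2 ratio was 0.17 in the carriers under 45% GC and −0.24 in those at 55% or more. All genes ran the same way, with medians of 0.16 and −0.17 in the same bins. Across the 39 carriers Pearson's r was −0.59 and Spearman's rho −0.66 between GC content and log2 ratio, against −0.32 and −0.46 across 14020 genes. These are descriptions across genes, which share the 2 libraries and are not independent replicates. What part GC content has in the ratio of any carrier was not tested. With the trend removed, 24 of 39 carriers had log2 ratios below 0 and the median was −0.05, and SLC25A12 (−0.47), SLC25A23 (−0.31) and SLC25A18 (0.92) still stood at the ends. SLC25A23 and SLC25A24, whose transcripts have 58.5% and 38.7% GC, differed by −0.28 in log2 ratio with the trend subtracted, and SLC25A12 and SLC25A13 by −0.53.

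**Figure D4:**
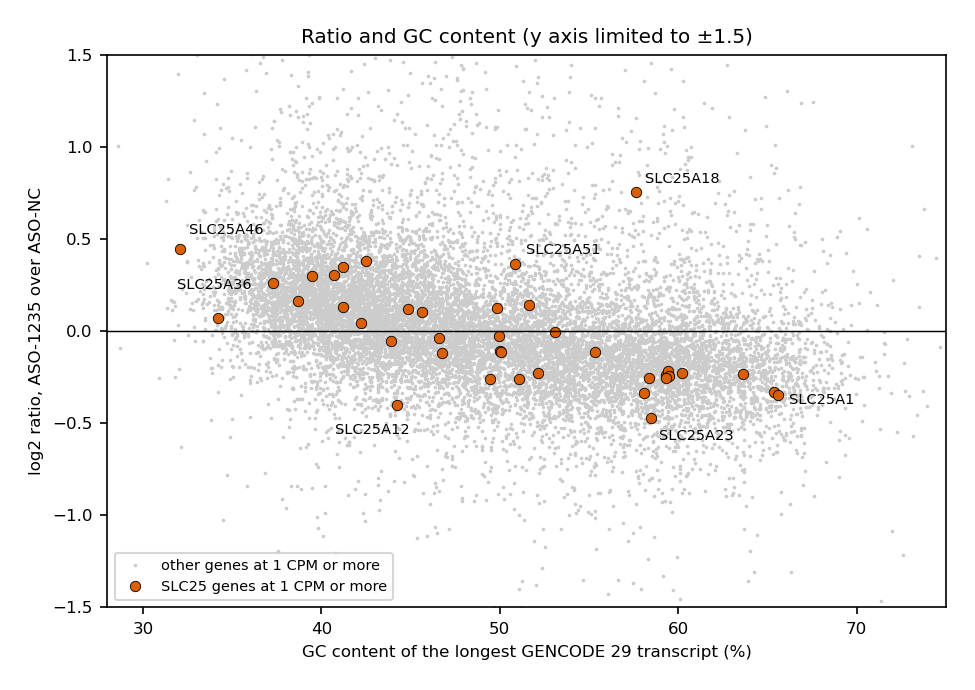
Log2 ratio ASO-1235 over ASO-NC against the GC content of the longest transcript in percent, for the 39 carriers (orange) and the other genes at 1 CPM or more (grey); the y axis is limited to 1.5 either way, so a few genes lie outside. Carriers fall along the slope of all genes, with SLC25A18 and SLC25A51 above it and SLC25A12 and SLC25A23 below it.

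Promoter windows, of 250 bases before to 50 bases after the transcript start, were available for 40 of the 48 members from RefSeq on GRCh38.p14. They are shown for the carriers with the lowest and the highest ratios and for SLC25A13, the partner of SLC25A12, 5′ to 3′ on the gene's strand. Capitals mark matches on either strand to the cyclic AMP response element TGACGTCA, the ETS core CCGGAAG, the NRF1 core TGCGCA, the E-box CACGTG or the GC box GGGCGG, none of which overlaps another of them in these windows.
SLC25A23 promoter, chr19:6459743-6460042, minus strand: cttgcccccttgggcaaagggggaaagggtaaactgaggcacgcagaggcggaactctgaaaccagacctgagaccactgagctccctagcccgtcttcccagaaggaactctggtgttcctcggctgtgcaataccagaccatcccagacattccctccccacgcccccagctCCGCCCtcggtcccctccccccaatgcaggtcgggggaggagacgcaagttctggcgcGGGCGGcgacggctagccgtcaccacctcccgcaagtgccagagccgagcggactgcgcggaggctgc
SLC25A12 promoter, chr2:171894195-171894494, minus strand: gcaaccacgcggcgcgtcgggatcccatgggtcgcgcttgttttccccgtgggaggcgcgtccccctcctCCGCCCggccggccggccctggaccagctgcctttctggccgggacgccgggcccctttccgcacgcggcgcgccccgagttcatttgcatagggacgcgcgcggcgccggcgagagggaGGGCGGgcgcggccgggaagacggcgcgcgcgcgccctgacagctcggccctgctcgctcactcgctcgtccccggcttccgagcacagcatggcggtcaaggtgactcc
SLC25A13 promoter, chr7:96322049-96322348, minus strand: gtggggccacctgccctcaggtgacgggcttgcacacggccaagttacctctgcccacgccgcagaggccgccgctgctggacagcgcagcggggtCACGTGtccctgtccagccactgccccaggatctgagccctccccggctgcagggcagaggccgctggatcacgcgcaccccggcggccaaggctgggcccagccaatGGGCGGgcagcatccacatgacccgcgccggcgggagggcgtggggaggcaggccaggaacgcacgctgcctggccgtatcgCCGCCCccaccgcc
SLC25A46 promoter, chr5:110738757-110739056, plus strand: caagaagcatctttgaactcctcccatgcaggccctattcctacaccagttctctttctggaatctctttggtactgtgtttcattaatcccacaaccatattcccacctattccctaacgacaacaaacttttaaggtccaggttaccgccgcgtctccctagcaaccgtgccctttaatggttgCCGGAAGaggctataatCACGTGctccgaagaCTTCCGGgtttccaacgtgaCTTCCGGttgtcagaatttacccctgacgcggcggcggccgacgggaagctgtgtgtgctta
SLC25A18 promoter, chr22:17563248-17563547, plus strand: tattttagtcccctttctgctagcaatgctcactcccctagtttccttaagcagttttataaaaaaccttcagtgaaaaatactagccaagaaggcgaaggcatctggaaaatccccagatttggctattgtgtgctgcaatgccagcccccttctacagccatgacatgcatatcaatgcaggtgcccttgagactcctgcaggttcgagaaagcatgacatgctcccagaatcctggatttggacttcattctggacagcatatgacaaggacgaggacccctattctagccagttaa

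The window of SLC25A18 held none of these motifs, with a GC content of 46.0% and 3 CpG dinucleotides, where the 40 SLC25 windows had a median of 66.2% GC and 27 CpG dinucleotides and all 27305 RefSeq windows a median of 58.3% GC and 14. SLC25A12 and SLC25A13, which went apart, both had 2 GC boxes, and SLC25A13 also had an E-box. The window of SLC25A46 held 3 ETS cores and an E-box. Over the family, a GC box was present in 28 of 40 windows (70%), against 44.6% of 27305 RefSeq promoters, an ETS core in 8 (20.0%) against 10.7%, an NRF1 core in 5 (12.5%) against 8.42%, an E-box in 7 (17.5%) against 7.43% and a cyclic AMP response element in 3 (7.50%) against 1.98%. The last were SLC25A25, SLC25A33 and SLC25A36. A match describes the letters in the window and no binding was measured.

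Family members that carry other names were near 1. UCP2, an uncoupling protein and the most counted of them, had 20933 counts in the ASO-1235 library and 27295 in the ASO-NC library, a ratio of 0.917 (0.901 to 0.934). MTCH1, an outer membrane relative, was at 0.872 (0.843 to 0.901), MTCH2 at 1.02 (0.966 to 1.07) and UCP3 at 0.996 (0.695 to 1.42), while UCP1 had 0 counts in both libraries. Of 15 measured genes of carrier import by the TOM and TIM22 routes, 0 were called higher and 1 lower. The lower one was TOMM5, a small TOM subunit, with 42 counts in the ASO-1235 library and 84 in the ASO-NC library. Its ratio was 0.598 (0.403 to 0.876). On halved counts its interval, from 0.336 to 1.03, included 1. Of 21 measured transporters of other families in mitochondria, 0 were called either way. Beside both lists, the shares over all genes were 6.4% called higher and 2.95% called lower. The highest of the 21 was MICU2, a regulator of the calcium uniporter, at 1.19 (1.12 to 1.26). ABCB8, a transporter of the inner membrane, was lowest at 0.710 (0.672 to 0.749).

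Enzymes next to these carriers showed small differences as well. Of the 4 enzymes of the malate-aspartate shuttle, 3 had ratios below 1, from MDH2 at 0.839 (0.819 to 0.860) to GOT2 at 1.04 (1.01 to 1.07). Of 9 enzymes that make or use citrate, 8 had ratios below 1 with a median log2 ratio of −0.20, as the citrate carrier SLC25A1 did. The fatty acid synthase FASN was at 0.831 (0.821 to 0.842), with the malic enzyme ME1 highest at 1.11 (0.994 to 1.24). Of 8 measured genes of the acylcarnitine route 7 were below 1, with CRAT lowest at 0.822 (0.803 to 0.841) and CPT1A highest at 1.005 (0.975 to 1.03). Of 12 enzymes of haem and iron-sulphur cluster synthesis 10 were below 1, with PPOX lowest at 0.754 (0.676 to 0.841). In these lists 0 genes were called at 1.5-fold, against 6.4% of all genes called higher and 2.95% called lower.

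Factors of mitochondrial biogenesis lay on the other side, with 8 of 11 ratios above 1 and a median log2 ratio of 0.18. Below 1 were 3 of the 11, against 49.9% of all genes. PPARGC1A, the coactivator PGC-1 alpha, was the single call of the 11, against 6.4% of all genes called higher. It had 718 counts in the ASO-1235 library and 553 in the ASO-NC library, a ratio of 1.55 (1.39 to 1.74). TFAM, which packages mitochondrial DNA, had 2734 counts in the ASO-1235 library and 2205 in the ASO-NC library, a ratio of 1.48 (1.40 to 1.57). The mitochondrial transcription factor gene TFB2M and the subunit gene GABPB1 were at 1.30 (1.22 to 1.39) and 1.29 (1.18 to 1.41). PPRC1, a further coactivator, was lowest at 0.918 (0.880 to 0.956). This list had a median GC content of 43.1%, against 50% in the carriers, and a median log2 ratio of 0.13 after trend removal.

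**Figure D5:**
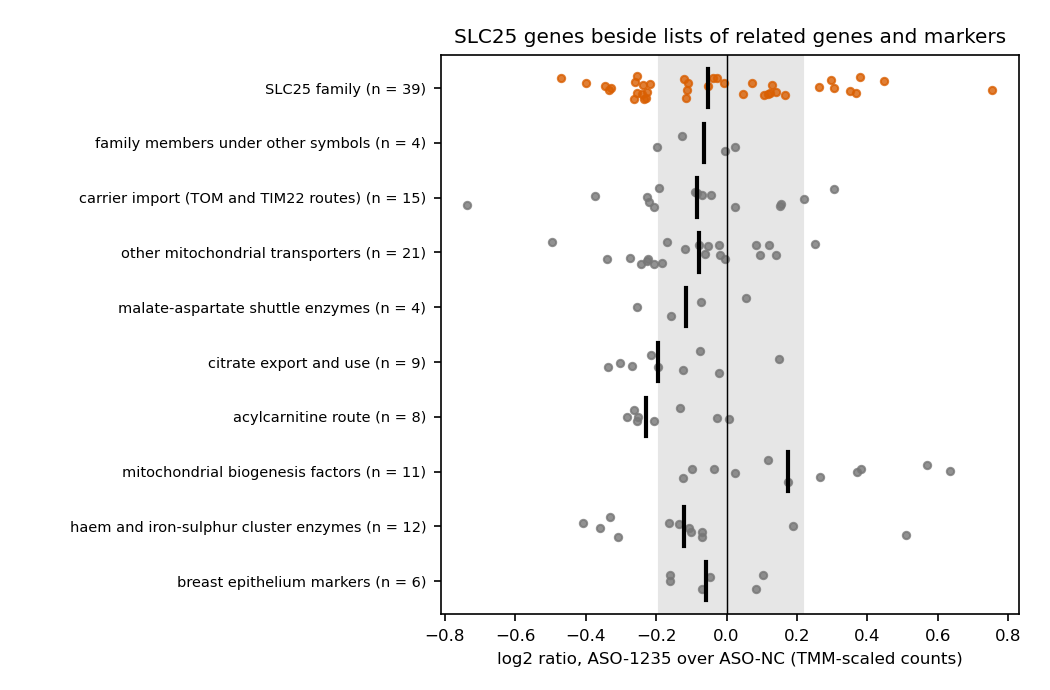
Log2 ratio ASO-1235 over ASO-NC of each gene at 1 CPM or more in the SLC25 family (orange) and in lists of related genes and markers (grey dots), with black bars at the median of each list and a grey band between the quartiles of all genes (−0.19 to 0.22). The bar of the carriers lies at −0.05 and that of the biogenesis factors at 0.18. The bars of all other lists lie below 0, with that of the breast epithelium markers at −0.06. Vertical scatter within a row carries no value.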

How the data were processed

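The authors deposited raw counts per gene as 1 table with a column for each library, ASO-1235 and ASO-NC. STAR 2.7.11a, featureCounts 2.0.6 and hg38 appear per the submitters' processing notes. Which annotation was counted, whether by strand, and how read pairs were treated is not given in the sources used here, so reads of overlapping or antisense genes cannot be told apart. Counts were present for 62699 gene IDs. 1 further ID had none, and 2 lines of coordinates were left out.

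Symbols came from a table of gene names, and lengths, GC content and overlaps from GENCODE 29 on GRCh38, which held 58206 of the IDs. TMM scaling used genes at 1 CPM (edgeR 4.0.16, R 4.3.3) and gave the ASO-1235 library a factor of 1.03 and the ASO-NC library 0.971; edgeR served for scaling alone. Intervals are Clopper-Pearson given the sum of both counts, or conditional exact for a pair of carriers (scipy 1.17.1), and with the floors they cover counting error only. Log2 ratios use a prior count of 0.5. The GC and length trend is a spline with 5 degrees of freedom each, fitted robustly (statsmodels 0.14.6). TPM had been planned for levels, and RPKM replaced it so that levels and ratios share 1 scale. The members and lists were chosen with earlier results of these data known, and the carrier pairs after their values were seen. Every member could be named, with full values for called members, the most abundant, highest and lowest of each substrate class and classes of 2 to 4 members. From the other lists, called genes or else the highest and lowest were named, and further ones after their values were seen. Of the genes this rule names, 1 carrier and some genes of the other lists are not reported here by name but stay in all counts and medians. The calculation was tested on simulated data. Scaling, minimum, fold, prior count, halved counts and trend removal were varied.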

Additional observations from a re-analysis of the deposited data

How the results depend on the processing

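Each group has 1 library, so no replicate could be left out. No paired analysis over replicates was possible for the same reason. With the size asked for lowered to a log2 ratio of 0.32, 4 carriers were higher and 5 lower in place of 1 and 0. The shares of all genes there were 14.7% higher and 10.9% lower. At 2-fold 0 carriers were higher, against 363 of 14352 genes. With no minimum beyond 1 count, 2 of 46 carriers were higher at 1.5-fold, against 2382 of 29875 genes. The median log2 ratio was then −0.11 for other amino acids, −0.090 for coenzymes and 0.17 for members with no settled substrate. With a minimum of 5 CPM, 0 of 30 carriers were higher, against 279 of 10757 genes. Under that minimum the medians were −0.23 for aspartate and glutamate carriers and 0.37 for coenzyme carriers. Scaling by total count put the median log2 ratio of all genes at 0.09 and the medians at −0.063 for ADP/ATP exchangers, 0.032 for phosphate and 0.012 for glutathione. Under it the family median was 0.032 in place of −0.053, with 19 of 39 carriers below 1 in place of 23 and 38.6% of all genes below 1, and the medians of the aspartate and glutamate carriers and of the carriers with no settled substrate turned to 0.027 and 0.078. With mitochondrially encoded genes left out of the totals, the median of those with no settled substrate was 0.031. Total count turned the sign of SLC25A3, SLC25A4, SLC25A26 and SLC25A48, the last 3 also with mitochondrially encoded genes left out of the totals. Subtracting the GC and length trend put the phosphate median at −0.18 and the pyrimidine median at 0.037. It moved the ATP-Mg/phosphate median to −0.026, turned the medians of the aspartate and glutamate carriers to 0.0080, of the coenzyme carriers to −0.022 and of those with no settled substrate to 0.086, and turned the sign of SLC25A16, SLC25A24, SLC25A25, SLC25A26, SLC25A27, SLC25A40 and SLC25A48. DESeq2 size factors, upper quartile scaling, halved counts and a prior count of 5 left the log2 ratio of all 39 carriers inside its interval. Total count left 30 inside and trend removal 22. The median of the carriers of other amino acids turned from 0.0070 to −0.023 with DESeq2 size factors and to −0.0075 with upper quartile scaling. The median of all genes was −0.029 and −0.014 under the same settings. The summed level was 524 RPKM in the ASO-1235 library and 572 RPKM in the ASO-NC library with the longest transcript as length. As TPM it was 996 in the ASO-1235 library and 961 in the ASO-NC library, a unit that runs 1.14 times higher for ASO-1235 over ASO-NC. For signs and medians other than those of the minimum, the cause was not tested. Depth limits the weak carriers: SLC25A20, with 85 counts in the ASO-1235 library and 122 in the ASO-NC library, had an interval from 0.624 to 1.11.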
